A study of Mus musculus with 6 samples.

Results

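Runx1, Runx2, Runx3 and Cbfb encode the core-binding factor, and their messenger RNA was followed with 6 Affymetrix whole-genome arrays of A20 cells, a BALB/c B lymphoma line. A gene was measured by the probe sets that the platform annotation gives to its symbol alone, and this held for 3 of the 4 genes, of 18194 genes in all. There were 9 of them among 45037 probe sets, 6 for Runx1, 2 for Runx3 and 1 for Cbfb, while 0 carried the symbol Runx2, which was not analysed here. Each of 6 conditions had 1 array, so no value has a replicate spread. SP600125 blocks the JNK kinases. With it, the conditions were the drug alone for 24 h, TGF-β for 12 h and TGF-β for 24 h. Without it they were untreated cells, TGF-β for 12 h and TGF-β for 24 h, and the sample titles name DMSO for these. Cells with TGF-β and SP600125 for 12 h had 12 h of drug, against 24 h in their unstimulated counterpart. All arrays come from 1 cell line, and the labels do not tell if cultures were separate.

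The Runx proteins bind DNA through the Runt domain, and Cbfb, which does not touch DNA itself, joins each of them and strengthens that binding. In B cells, TGF-β sends Smad3 and Smad4 to the nucleus, where they work with Runx proteins at the promoter of the unrearranged IgA constant region, a step that precedes switching to IgA. Runx1 is best known from blood stem cells and leukaemia, Runx2 from bone, and Runx3 from T cells and from TGF-β responses.

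The Runx genes share a sequence at their upstream starts, shown here because Runx factors bind it. Sequences are RefSeq windows of GRCm38.p6, from 250 bases before to 50 bases after a start, and all 4 genes were found in that table, with 6 windows. The capitals mark the Runx motif ACCACA, which was searched with its complement TGTGGT on both strands. The Runx1 stretch is at chr16:92826025-92826054, minus strand, and begins 21 bases into the transcript. That of Runx2 is at chr17:44814583-44814612, minus strand, and begins 16 bases into the transcript. That of Runx3 is at chr4:135120503-135120532, plus strand, beginning at position -142 from the start.
Runx1: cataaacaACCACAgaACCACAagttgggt
Runx2: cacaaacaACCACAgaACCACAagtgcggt
Runx3: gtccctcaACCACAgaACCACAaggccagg
The paired form, with 2 copies of ACCACA separated by GA, was present on either strand in 4 of 32851 windows, which are those of Runx1, Runx2, Runx3 and of Gm16225, whose window overlaps that of Runx3 on the other strand. The single motif was in 16.8% of windows, and 1.81% held it at least 2 times. It had 2, 3 and 2 matches at these starts of Runx1, Runx2 and Runx3, and 0 at the downstream starts of Runx1 and Runx3 and at that of Cbfb.

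Runx3 has a further start downstream, and its 250 bases, chr4:135152295-135152544 on the plus strand, hold the palindrome GTCTAGAC, a Smad binding sequence, at position -175 (capitals).
Runx3 downstream: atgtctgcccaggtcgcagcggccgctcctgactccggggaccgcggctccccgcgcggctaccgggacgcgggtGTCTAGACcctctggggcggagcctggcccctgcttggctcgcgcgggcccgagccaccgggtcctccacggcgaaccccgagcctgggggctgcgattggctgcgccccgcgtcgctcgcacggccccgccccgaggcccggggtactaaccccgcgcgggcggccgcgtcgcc
This palindrome was in 0.213% of all windows and in none of the other 5 here, and the motifs searched were chosen after these windows had been read. The AP-1 motif TGANTCA, bound by the factors that JNK activates, was in 7.81% of all windows and in 0 of these 6. A match is a description of the letters, and the probe sets were not assigned to one start or the other.

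Signals are linear intensities on arrays that share a trimmed mean of 500.0, with array medians from 69.3 to 80.9. A floor was set at the median of all signals, 74.2, and lower signals were raised to it, so a change from or to it is a bound. Of the 9 probe sets 8 were above the floor on at least 2 arrays and were tested, among 24946 probe sets in all. The labelled cell type was borne out by 8 of 8 measured B cell markers above the floor on all 6 arrays, such as Cd79a and Ms4a1, whereas Cd4, Cd14, Itgam, Col1a1 and Hba-a1 were below it on all 6. Of the markers of other cell types, Csf1r at 277.1 to 405.5, Adgre1 at 171.7 to 496.6, Sp7 at 150.1 to 257.9 and Itga2b at 174.3 to 273.6 were above the floor on all 6, and Col1a2 was on 5. Cd8a, Lyz2, Mpo and Pf4 were above it on 3 arrays, Cd3e, Elane and Col3a1 on 2, and Gzma, Ibsp and Dcn on 1. TGF-β acted as labelled on Smad7, the pathway's feedback inhibitor, whose signal was 485.1 at 12 h and 525.2 at 24 h without drug, against 123.6 in untreated cells. The array of TGF-β for 24 h with SP600125 stood apart, with an 18S control signal of 5878.2 against 506.5 to 881.5 on the other 5 arrays and an actin 3′/5′ ratio of 1.89 against 1.25 to 1.51.

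No tested probe set of Runx1, Runx3 or Cbfb passed the test, either with TGF-β or with SP600125. An additive limma model with the TGF-β state and the drug as terms was fitted over all tested probe sets, and a probe set was called where its Benjamini-Hochberg adjusted p fell below 0.05. It called 0 of the 8 members for TGF-β at 12 h, 0 at 24 h and 0 for SP600125, where 2.91%, 11.8% and 5.12% of all probe sets were called. With 8 members, counts of 0 do not set them apart from these shares. Of all probe sets 1.56% rose and 1.35% fell after 12 h, 6.08% and 5.75% after 24 h, and 2.64% and 2.48% with the drug. At an unadjusted p under 0.05 there were 2, 0 and 1 members of 8, against 18.1%, 27% and 20.5% of all probe sets. Of the 2 at 12 h, 1 was Runx3 1421467_at, which passed the filter only through the arrays at 12 h. No test is drawn from that count. The median effect over the members was 0.09 at 12 h, −0.12 at 24 h and −0.10 with SP600125 on the log2 scale, beside 0.02, 0.04 and 0.03 for all probe sets. With 1 array per condition the model takes its error from how far arrays depart from additive effects, so a p-value reflects nothing beyond the scatter of these arrays, and that scatter may be technical.

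**Figure D1:**
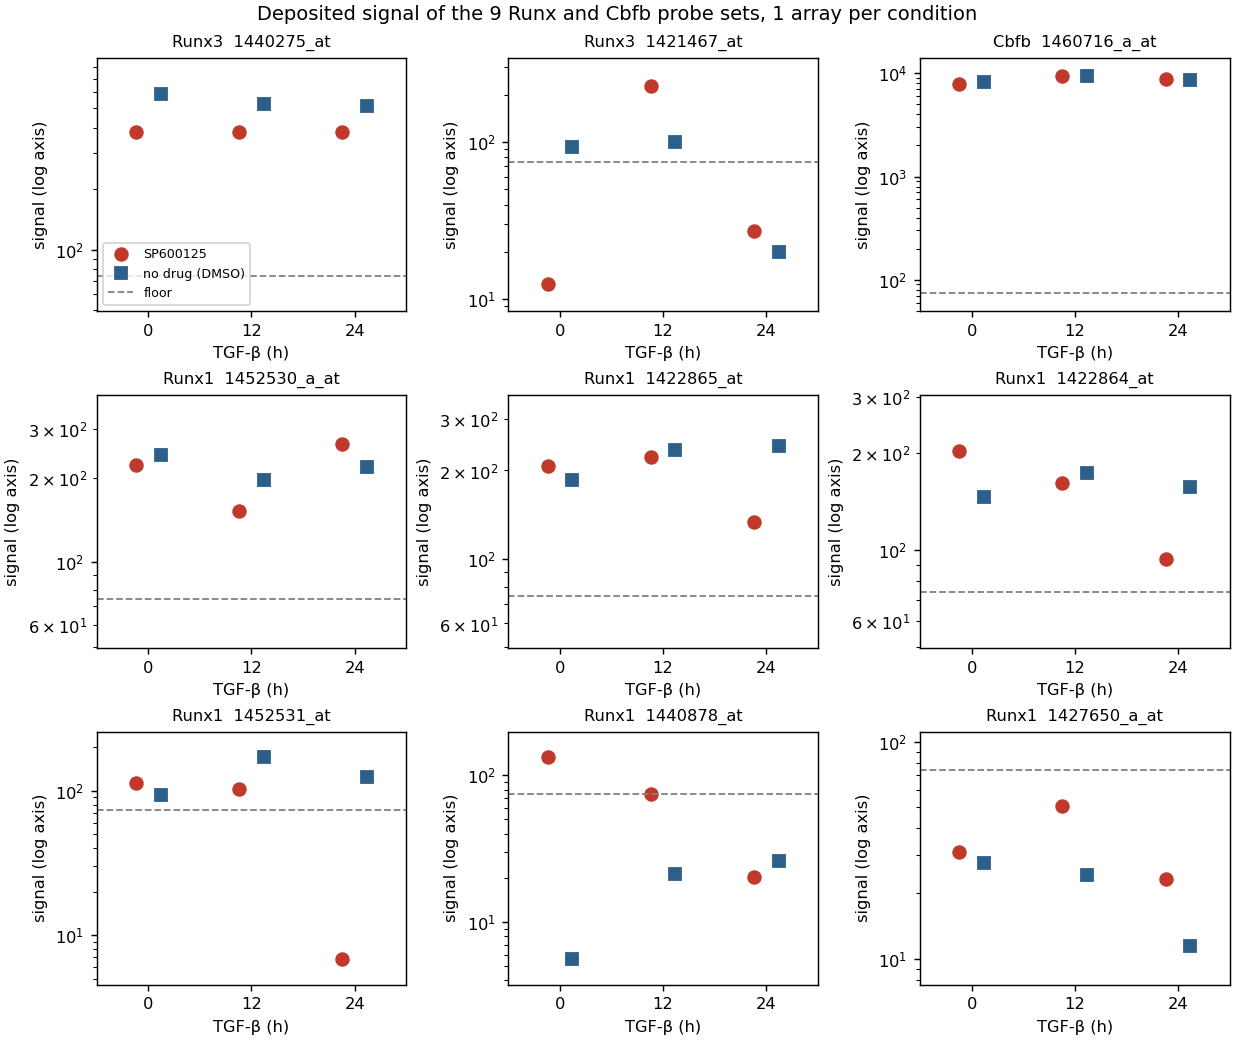
Deposited signal (vertical, log axis, with a range of its own in each panel) of each of the 9 probe sets against hours of TGF-β (horizontal), 1 point per array, with SP600125 as red circles and without drug as blue squares; the dashed line is the floor of 74.2. The upper left panel shows 1 Runx3 probe set with its 3 SP600125 arrays between 380.8 and 383.9, below the 3 arrays without drug.

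Runx3, the member most closely tied to TGF-β, was measured above the floor on all arrays by the probe set 1440275_at. Over 0, 12 and 24 h of TGF-β its signal was 382.6, 380.8 and 383.9 with SP600125. Without drug it was 592.1, 524.1 and 512.3. Every array with the drug was thus lower than every array without it, and the 3 drug arrays were nearly equal. On the log2 scale the differences in that order were −0.63, −0.46 and −0.42. In limma the SP600125 effect was −0.50 ± 0.17 (SE), with a 95% confidence interval of −0.90 to −0.11, lower in 3 of 3 pairs. Its adjusted p was 0.142, so it did not pass, and over the alternatives tried the adjusted p lay between 0.0948 and 0.8. Without the array of TGF-β for 24 h with SP600125 the effect was −0.55.

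TGF-β left this Runx3 signal within a narrow range. Without drug it differed from untreated cells by −0.18 at 12 h and −0.21 at 24 h, and with SP600125 from the drug alone by −0.01 and 0.00. The limma estimates were −0.09, with a 95% interval of −0.57 to 0.39, at 12 h, and −0.10, with an interval of −0.58 to 0.38, at 24 h. A 2-fold change, a log2 of 1 in size, lies outside both intervals.

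Some B cell markers were also lower with the drug. Of 8 such genes 4 fell, namely Cd79a, Ms4a1, Cd22 and H2-Aa, and 0 rose, where 3.05% of all genes, each by its brightest probe set, fell. The other 4 did not pass, with Cd79b at 0.05 and Blnk at 0.28. Their summed signal was 63004.9 to 85599.2 on the arrays with SP600125, against 82487.0 to 114815.0 on those without. The part of this in the Runx3 difference, which itself did not pass, was not tested. On bulk arrays, fewer cells of a type and less RNA per cell cannot be told apart.

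The other Runx3 probe set, 1421467_at, gave another picture near the floor. Over 0, 12 and 24 h of TGF-β it was at 12.5, 229.3 and 27.3 with SP600125. Without drug it was at 93.2, 100.8 and 19.8. Only the arrays at 12 h and the untreated array exceeded the floor, and both arrays at 24 h lay below it. In the pair at 12 h of TGF-β over the drug alone it was at least 3.09-fold higher, and with SP600125 over no drug at 12 h it was higher by 1.19 on the log2 scale. The limma estimate for TGF-β at 12 h was 0.87. The probe set passed the filter only through the arrays at 12 h, and its lower readings were raised to the floor. No test is drawn from this estimate, although the probe set is counted among the 8 tested. The 2 probe sets of Runx3 thus differed in the sign of the SP600125 effect, which here was 0.29 ± 0.29 with an adjusted p of 0.633. Their mean gave −0.11 for the drug, with an adjusted p of 0.8.

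Cbfb, the partner of all Runx proteins, was far above the floor and nearly level. Its single probe set, 1460716_a_at, read 7803.4, 9348.4 and 8853.2 with SP600125 over 0, 12 and 24 h of TGF-β. Without drug it read 8154.2, 9357.6 and 8586.5. The highest signal was 1.2 times the lowest. In rising order the arrays were SP600125 alone, untreated, TGF-β for 24 h without and with drug, and TGF-β for 12 h with and without drug; with 1 array each, neighbours in this order cannot be set against a replicate spread.

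The arrays at 12 h of TGF-β were the highest in Cbfb in both arms. The limma effect at 12 h was 0.23 ± 0.09, with a 95% interval of 0.01 to 0.45, higher in 2 of 2 pairs, and its adjusted p was 0.249. At 24 h it was 0.13 ± 0.09, and for SP600125 −0.01 ± 0.08, with a 95% interval of −0.18 to 0.17. Scaling the arrays to 1 median turned the 24 h estimate to −0.0041 and left 0.15 at 12 h. All 3 intervals lie well within a 2-fold change.

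**Figure D2:**
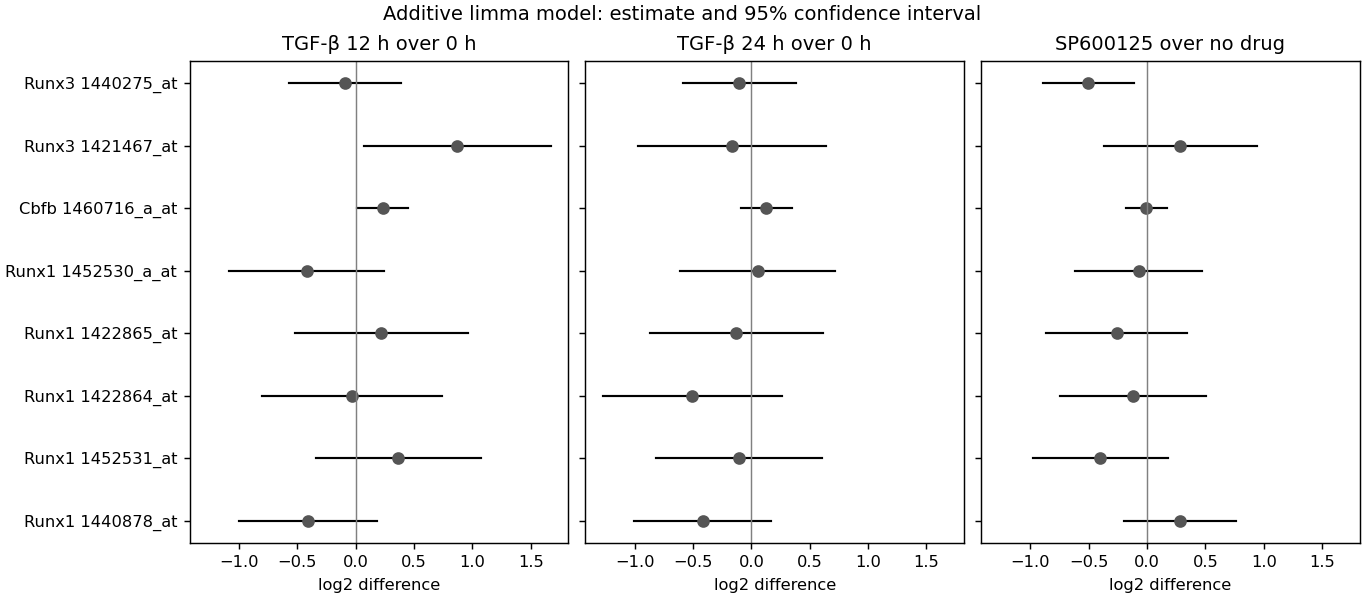
Estimated log2 difference (horizontal) and its 95% confidence interval from the additive limma model for the 8 tested probe sets (vertical), for TGF-β at 12 h, TGF-β at 24 h and SP600125. The 3 intervals that exclude 0 are those of Runx3 1421467_at and Cbfb at 12 h and of Runx3 1440275_at with SP600125. For Cbfb and Runx3 1440275_at the adjusted p-values were 0.249 and 0.142. Runx3 1421467_at passed the filter only through the arrays at 12 h, so no test is drawn from its interval there.

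Runx1, the third measured gene, was represented by 6 probe sets, and 3 of them were above the floor on all arrays. The brightest, 1452530_a_at, was at 222.5, 152.5 and 264.5 with SP600125 over 0, 12 and 24 h of TGF-β, against 241.7, 197.1 and 218.9 without drug. Its lowest readings in each arm were at 12 h, where the limma effect was −0.42 ± 0.29, lower in 2 of 2 pairs, and its adjusted p was 0.509.

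The next, 1422865_at, was at 207.9, 222.3 and 133.7 with SP600125 over the same times, against 186.0, 235.8 and 241.9 without. The third, 1422864_at, was at 203.1, 162.2 and 93.9 with the drug, against 145.9, 174.2 and 156.7 without. Both had their lowest reading on the array of TGF-β for 24 h with SP600125, on which the brightest probe set had its highest.

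The probe set 1452531_at was at 113.9, 102.7 and 6.8 with SP600125 over 0, 12 and 24 h, against 93.5, 171.8 and 123.9 without drug, and it too was lowest on that array. For 1422864_at the pair at 24 h of TGF-β over the drug alone was 2.16-fold lower. With that array left out, the limma effect of TGF-β at 24 h was 0.32 for 1422865_at and −0.04 for 1422864_at, against −0.13 and −0.51 with it. Its 18S signal and actin ratio, given above, moved with these low readings, and their part in them was not tested.

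The dimmest Runx1 probe sets carried little. The probe set 1427650_a_at lay below the floor on all arrays, between 11.4 and 50.8. The probe set 1440878_at was above it only with SP600125, where it read 132.6, 74.9 and 20.2 over 0, 12 and 24 h, against 5.6, 21.1 and 25.9 without drug. It entered the fit only through 2 drug arrays, and all its readings without drug were raised to the floor. It is counted among the 8 tested members, but its own estimates are not read as a test. Over the other 4 tested Runx1 probe sets the drug effect lay between −0.40 and −0.07, but its sign was not steady. Without the array of TGF-β for 24 h with SP600125 it was 0.19 for 1422864_at and 0.04 for 1422865_at. It was then −0.24 for 1452530_a_at and −0.23 for 1452531_at. Before TGF-β the drug array differed from untreated cells by 0.48, 0.16, −0.12 and 0.28 in that order.

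The study took 2-fold between single arrays as its threshold for TGF-β induction, and the same fold was applied here to all 7 pairs, in both directions and with no test. Without drug, 0 of 8 were 2-fold higher or lower at 12 h or at 24 h of TGF-β, where 2.87% and 1.62% of all tested probe sets were higher and lower at 12 h, and 4.77% and 2.12% at 24 h. In the drug arm 1 was higher and 0 lower after 12 h, where 2.67% and 1.31% of all were, and that was Runx3 1421467_at. After 24 h 0 were higher and 1 lower, where 4.3% and 2.97% of all were, and that was Runx1 1422864_at. SP600125 over no drug gave 0 higher and 0 lower before TGF-β, where 2.79% and 1.46% of all were. With 12 h of TGF-β it gave 1 higher, Runx3 1421467_at, and 0 lower, where 1.75% and 1.07% were, and with 24 h 0 and 0, where 3% and 2.81% were. The pairs at 12 h and 24 h of an arm share their unstimulated array.

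Whether the drug altered the TGF-β effect was tested with a limma model of TGF-β by SP600125, with 12 h and 24 h as repeats. It called 0 of 8 members and 0 of all 24946 probe sets, or 0%, after adjustment, while 727, or 2.91%, had an unadjusted p below 0.05. Of the 8 members 1 did, Runx1 1440878_at, which entered the fit only through drug arrays, so no test is drawn from it. The model takes any change between 12 h and 24 h as error. With 0 calls among all probe sets, it cannot tell whether the drug altered the TGF-β effect on the members. All members had an adjusted p of 0.999. For Runx3 1440275_at the interaction was 0.19 ± 0.32 and for Cbfb 0.08 ± 0.18.

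Of 39 listed genes for proteins that act with Runx factors 37 had a probe set and 31 were tested, each gene by its brightest. The shares to read these counts against are those of all 11730 genes taken by their brightest probe set, of which 1.99% rose and 1.83% fell after 12 h, 7.84% and 6.79% after 24 h, and 3.31% and 3.05% with SP600125. Of the 31 partners 2 rose and 1 fell after 12 h, 5 and 1 after 24 h, and 4 and 2 with SP600125. Their medians were 0.02, 0.25 and 0.05 in that order, against 0.02, 0.07 and 0.04 for all genes. With arrays scaled to 1 median, 0 rose and 2 fell at 12 h. The partners were listed with earlier results of these data known, so their counts are not a test.

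Smad4, the shared Smad that carries the TGF-β signal, rose with SP600125 by 0.58 ± 0.12, with signals of 2776.2, 2746.8 and 3820.2 at 0 h, 12 h and 24 h with drug against 2295.9, 1701.4 and 2219.2 without. Smad3, which binds DNA beside Runx, was at 0.33 ± 0.21 with an adjusted p of 0.415. Ep300, an acetyltransferase that Runx proteins recruit, rose with TGF-β, by 0.79 ± 0.17 after 12 h and 1.15 ± 0.17 after 24 h, and with SP600125, by 0.68 ± 0.14.

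Among co-repressors and enzymes, Hdac1, a histone deacetylase, rose by 0.56 ± 0.10 after 12 h and 0.38 ± 0.10 after 24 h and was at −0.40 ± 0.08 with the drug, lower in 3 of 3 pairs. With arrays scaled to 1 median Hdac1 did not pass at 12 h, at 0.48 with an adjusted p of 0.0555, or at 24 h, at 0.25 with 0.175. Tle3, a Groucho co-repressor that binds the end of Runx proteins, rose by 1.43 ± 0.33 at 24 h, but 0 of its other 3 tested probe sets passed. That estimate averages unlike arms, as Tle3 at 24 h was higher by 2.17 without drug and by 0.69 with it. Prmt1, an arginine methyltransferase that modifies Runx1, was at −0.96 ± 0.13 after 24 h and at −0.53 ± 0.10 with SP600125, a fall in both. Smurf2, a ubiquitin ligase that marks Runx proteins for decay, rose by 0.64 ± 0.13 at 24 h by 1 of its 3 probe sets. Cebpb, a partner of Runx factors at several promoters, rose by 2.87 ± 0.13 with SP600125 and fell after 12 h of TGF-β, at −0.81 ± 0.16. Hipk2, a kinase that phosphorylates Runx1, rose by 0.72 ± 0.15 with the drug, while 0 of its other 5 tested probe sets passed.

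Of 35 listed genes known in mouse or human to be bound or controlled by Runx factors, 31 had a probe set and 19 were tested, while 10 were never above the floor. TGF-β raised 3 of the 19 and lowered 0 after 12 h, and raised 5 and lowered 0 after 24 h, while SP600125 raised 2 and lowered 1. With SP600125 3.31% of all genes rose and 3.05% fell. The medians of these targets were 0.26, 0.49 and 0.07, against 0.02, 0.07 and 0.04 for all genes. The list holds Smad7, Tgfbr1 and Tgfbr2, which were chosen with their rise in these arrays known and are Smad targets or pathway parts as well. They are all 3 of the genes risen after 12 h and 3 of the 5 after 24 h. Of the other 16 tested targets 0 rose after 12 h and 2 after 24 h, against the 1.99% and 7.84% of all genes given above. The rest of the list was also chosen with earlier results of these data known, so these counts are not a test. The receptor genes rose by 1.65 ± 0.32 (Tgfbr1) and 0.89 ± 0.18 (Tgfbr2) after 12 h, and by 2.17 ± 0.32 and 1.10 ± 0.18 in that order after 24 h. These estimates average unlike arms. At 12 h and 24 h Tgfbr1 was higher by 2.38 and 2.99 without drug, and by 0.92 and 1.36 with it. Tgfbr2 was higher by 1.16 and 1.48 without drug, and by 0.63 and 0.73 with it. With the drug alone Tgfbr1 read 2030.5, against 1031.7 in untreated cells. Neither of the other Tgfbr1 probe sets passed at either time, and the other one of Tgfbr2 passed after 12 h, at 1.14, but was at 0.21 with an adjusted p of 0.636 after 24 h. The integrin gene Itga4 rose by 1.27 ± 0.26 at 24 h, with signals of 375.7 against 143.9 in the drug arm and 424.4 against 189.7 without drug. Socs4, a suppressor of cytokine signalling, rose by 0.57 ± 0.13 at 24 h by 1 of its 4 probe sets.

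The 2 targets that rose with SP600125 are linked to cell death and growth arrest. Bcl2l11, which encodes the death factor Bim and which Runx3 is known to induce, rose by 0.74 ± 0.09 with SP600125, higher in 3 of 3 pairs. The part of Runx3 in this rise was not tested. With TGF-β Bcl2l11 was at 0.05 ± 0.11 after 12 h and 0.27 ± 0.11 after 24 h. Of its other 4 tested probe sets 3 also rose with the drug, and 1 of them, at 0.45, rose at 24 h of TGF-β. Cdkn1a, a cell cycle inhibitor, rose by 1.38 ± 0.27 with the drug. Cd79a, a B cell receptor chain that Runx1 and Ebf1 activate together, was at −0.57 ± 0.13 with SP600125, lower in 3 of 3 pairs, and its limma adjusted p was 0.0471.

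Igha, the IgA heavy chain constant region, is the gene whose switching the Runx and Smad factors prepare, and it was singled out after its values were seen. The probe set 1429381_x_at was at 128.0 at 24 h of TGF-β with SP600125, against 28.2 with the drug alone, and at 244.9 at 24 h without drug, against 103.0 in untreated cells. At 12 h it was at 107.7 with drug and 94.9 without. Its effect at 24 h was 1.02 ± 0.31, higher in 2 of 2 pairs, and its limma adjusted p of 0.0691 did not pass. The reading of 28.2 was raised to the floor, so the pair with drug in this estimate is a bound. Over the alternatives tried the estimate lay between 0.485 and 1.716, and the lowest limma adjusted p was 0.0333. A further probe set, 1425763_x_at, was at 161.3 at 24 h with drug against 33.3 with the drug alone, and at 135.3 at 24 h without drug against 20.3 in untreated cells. Both of its 24 h readings were above all others. It was above the floor on 3 arrays, all with TGF-β, and so entered the fit through the group where it was high. Its estimate of 0.99 at 24 h is against readings raised to the floor, and no test is drawn from it. The third, 1421653_a_at, exceeded the floor on 1 array, at 167.8 with TGF-β for 24 h and SP600125, so it was not tested. Probe sets with the ending x_at can share sequence with other genes, here other antibody chains.

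In the wider list for IgA switching 18 of 23 genes had a probe set and 16 were tested, and TGF-β raised 5 and lowered 0 after 12 h and raised 6 and lowered 1 after 24 h. SP600125 raised 2 and lowered 3. Of all genes 1.99% rose and 1.83% fell after 12 h, 7.84% and 6.79% after 24 h, and 3.31% and 3.05% with SP600125. The medians of this list were 0.27, 0.35 and −0.13, against 0.02, 0.07 and 0.04 for all genes. Smad7, Tgfbr1 and Tgfbr2 supply 3 of the 5 and 3 of the 6 risen. Of the other 13 genes 2 rose and 0 fell after 12 h, and 3 rose and 1 fell after 24 h. The whole list was chosen with earlier results of these data known, so these counts are no test against the shares of all genes. The list shares Smad7, Tgfbr1 and Tgfbr2 with the targets and Smad3 and Smad4 with the partners. Tnfrsf13b, which encodes the receptor TACI that promotes IgA switching, rose by 1.28 ± 0.11 after 12 h and 0.89 ± 0.11 after 24 h. Cd40, the receptor for T cell help, rose by 1.30 ± 0.28 after 12 h and 1.72 ± 0.28 after 24 h. Its estimates average unlike arms. At 12 h and 24 h it was higher by 0.78 and 1.01 without drug, and by 1.82 and 2.43 with it. With the drug alone it read 491.1, against 1422.1 in untreated cells. Tnfrsf13c, the BAFF receptor gene, was at −1.24 ± 0.12 with SP600125, lower in 3 of 3 pairs. Ung, the uracil glycosylase that processes switch region lesions, was at −0.96 ± 0.20 at 24 h, and Tgfb1 itself rose by 0.69 ± 0.17. Without the array of TGF-β for 24 h with SP600125, 0 genes of any of these 3 lists passed, as was true of all probe sets, while list medians at 24 h were 0.285 for partners, 0.49 for targets and 0.36 for IgA switching, against 0.25, 0.49 and 0.35 with it.

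Median or quantile scaling also ended the calls of Ep300, Tgfbr2, Cd40 and Cebpb at 12 h, of Socs4 and Tgfb1 at 24 h and of Cd79a with SP600125, 9 calls in all with those of Hdac1, at adjusted p-values of 0.0513 to 0.175. With the mean of a gene's probe sets in place of the brightest, fewer list genes passed. Partners then had 0 risen and 0 fallen after 12 h, 2 and 1 after 24 h, and 1 and 0 with SP600125. Targets had 0 and 0, 1 and 0, and 1 and 0 in the same order. IgA switching genes had 1 and 0, 4 and 1, and 0 and 1.

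**Figure D3:**
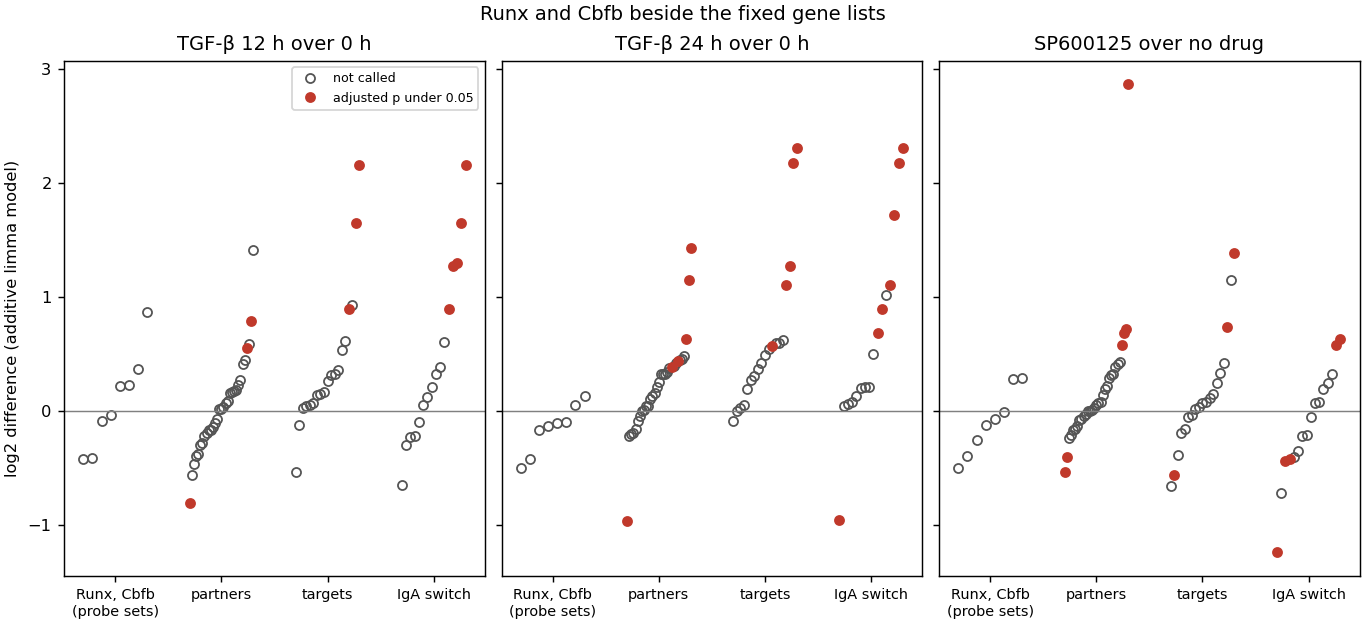
Log2 difference from the additive limma model (vertical) for the 8 Runx and Cbfb probe sets and for the tested genes of the partner, target and IgA switching lists (horizontal), each ordered by value; filled red points have an adjusted p under 0.05. The Runx and Cbfb points are all open and lie between −0.51 and 0.87.

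No member's brightest probe set spanned 2-fold over the 6 arrays, the limit set for naming genes of like pattern, the spans being 1.55-fold for Runx3, 1.73-fold for Runx1 and 1.2-fold for Cbfb. With the limit lowered to 1.5-fold after the values were seen, the genes with the highest Pearson r of log2 signal over the 6 arrays were named from about 11060 probe sets. For Runx3 1440275_at these were Rpn1, a subunit of the enzyme that adds sugar chains to new proteins, at 0.992, the scavenger receptor gene Cd36 at 0.991, Galnt12 at 0.988 and Edem1, which clears misfolded proteins from the endoplasmic reticulum, at 0.987. For Runx1 1452530_a_at they were Zdhhc23 at 0.992, Myo10 at 0.990 and Lpcat4 at 0.989. These values are the highest among many candidates over 6 arrays and carry no test.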

How the data were processed

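The deposited values are linear intensity signals, 1 per probe set and array, made by the authors with GCOS 1.2 per the submitters' processing notes; further settings: not given in the sources used here. Of 45101 probe sets, 64 controls were left out of tests, 34958 had 1 symbol, 932 several and 9211 were not listed. Arrays were used as deposited, floored at the 50th percentile of all signals, 74.2, and taken to log2. Probe sets above the floor on at least 2 arrays were fitted with limma 3.58.1 in R 4.3.3, with an intensity trend, 2 residual degrees of freedom and a prior of 6.47, and p-values were adjusted (Benjamini-Hochberg) over 24946 probe sets. The 7 single pairs have no test. In simulated data for the SP600125 effect, with 24946 probe sets of equal noise, the fit recovered 100 of 100 changes of log2 1 and 100 of 100 of log2 2, with 14 false calls. The simulated data held no TGF-β effect, and real probe sets differ in noise. In the real fit Tle3, at 1.41 after 12 h, did not pass, with a limma adjusted p of 0.0619. The simulation thus does not give the share of real changes that the fit finds. The members, gene lists and tests were chosen with earlier results of these data known. All member probe sets are named; from each list at most 8 genes called in any effect, by size, plus genes said to be singled out. Alternatives were the scaling, the floor, the filter, the unit (probe set or gene), the variance trend and leaving out 1 array. Depth has no meaning for arrays, and their number limits the precision.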

Additional observations from a re-analysis of the deposited data

How the results depend on the processing

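No Runx or Cbfb probe set was called in any of the 3 additive effects under any of the 9 alternatives, or for the interaction under its 3. The count of all probe sets called, 726 at 12 h, 2950 at 24 h and 1276 for SP600125, became 8, 10 and 0 with no filter, 92, 964 and 175 with the mean of a gene's probe sets, and 0, 205 and 17 without the variance trend, an alternative chosen after seeing the data. At 24 h it was 1942 with the brightest probe set of each gene, where 11730 genes were tested. Without the array of TGF-β for 24 h with SP600125, where 1 residual degree of freedom is left, it was 0 for all 3 effects, with 4223, 4841 and 3475 at an unadjusted p under 0.05. Under median scaling the split of risen and fallen was 290 and 494 at 12 h, 980 and 2178 at 24 h, and 510 and 885 for SP600125, against 390 and 336, 1516 and 1434, and 658 and 618 as deposited. For the single pairs, median scaling gave 609 higher and 578 lower at 12 h and 965 and 767 at 24 h without drug, against 717 and 403, and 1191 and 530. With drug at 24 h it gave 697 and 1261 against 1073 and 741, and for SP600125 at 24 h 470 and 946 against 748 and 700. With the floor at the 25th percentile, 20.3, 6635 and 7183 probe sets passed 2-fold after 12 and 24 h without drug. With drug these counts were 6729 and 7978, and SP600125 gave 6622, 6077 and 7279 over 0, 12 and 24 h. Of 9 members then tested, 1 passed 2-fold at 24 h without drug, 3 at 24 h with drug, and 2, 3 and 1 with SP600125 over 0, 12 and 24 h. Estimates that changed sign had not been called. With that array left out the 24 h effect was 0.32 for Runx1 1422865_at, −0.21 for 1452530_a_at, 0.15 for 1452531_at and 0.0498 for Runx3 1421467_at, the SP600125 effect 0.19 for Runx1 1422864_at and 0.0378 for 1422865_at, and the interaction −0.33 for 1452530_a_at. Scaling turned the 24 h effect of Runx1 1452530_a_at to −0.0792 (median) and −0.0612 (quantile), that of Cbfb to −0.0041 (median), and the SP600125 effect of Cbfb to 0.0426 (quantile). With the mean of probe sets Runx3 was at 0.39 at 12 h, Runx1 at −0.18 at 24 h, and Igha at 0.0504 for SP600125. The floor turned the SP600125 effect of Runx1 1422864_at to 0.0218 (60th percentile) and of Runx3 1421467_at to −0.20 (25th). The cause was not tested. No paired analysis was possible because each condition had 1 array and the labels give no replicate numbers.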
